A study of Mus musculus with 8 samples.

Results

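Heat shock proteins and their helpers keep other proteins folded, and their transcripts were described here in muscle stem cells of old and young mice. The group was taken by name from the deposited table, as the genes whose symbols begin with Hspa, Hspb, Hspd, Hspe or Hsph and a number, Hsp90, Dnaj, Bag and a number, or Hsf and a number. It comprised 85 of the 24630 genes. Of these, 52 had a mean of at least 5 RPKM (read count divided by the gene's length in kilobases and by the library's reads in M, for mega) and were tested, and 33 were below that level. The old group was 4 C57BL/6 males aged 22 months, and the young group was 4 C57BL/6 males aged 4 months. Both groups were unmanipulated as far as the labels state, with 1 library per animal. Skeletal muscle stem cells were sorted from limb muscles without culture, by the absence of CD45, CD31 and Sca1 and the presence of VCAM. Which transcripts differ with age in these sorted cells is the question that the comparison of old with young addresses.

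Hsp70 proteins bind unfolded stretches of other proteins and release them in a cycle driven by ATP. J-domain proteins (the Dnaj genes) deliver the clients and start ATP hydrolysis, and BAG and Hsp110 proteins exchange the nucleotide so that the client is let go. Separate sets of these proteins work in the cytosol, the endoplasmic reticulum and the mitochondrion. Under heat or proteotoxic stress the transcription factor HSF1 binds heat shock elements, inverted repeats of the letters GAA, and switches on the inducible genes Hspa1a, Hspa1b, Dnajb1 and Hsph1. The unfolded protein response of the endoplasmic reticulum acts through other elements. In muscle stem cells, enzymatic dissociation of the tissue is known to induce inducible heat shock genes together with immediate early genes such as Fos.

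Promoter sequences are shown for the 2 inducible Hsp70 copies, for an inducible gene that was not called (Hsph1), for 2 genes outside the inducible class with several elements (Hspe1 and Dnaja4), for the most variable small heat shock gene (Hspb1) and for a gene of the endoplasmic reticulum (Hspa5). They are RefSeq sequences on GRCm38.p6, read 5′ to 3′ on the strand of the gene and ending at the base before the annotated start. Capitals mark heat shock elements of 2 units (GAANNTTC or TTCNNGAA), and in Hspa5 the endoplasmic reticulum stress element (CCAAT, 9 bases of any kind and CCACG).
Hspa1a, chr17:34972157-34972406, minus strand: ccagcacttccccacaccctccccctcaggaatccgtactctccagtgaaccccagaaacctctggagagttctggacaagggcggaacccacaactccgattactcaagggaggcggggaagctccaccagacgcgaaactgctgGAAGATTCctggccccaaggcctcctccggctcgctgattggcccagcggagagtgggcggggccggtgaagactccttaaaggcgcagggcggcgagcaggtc
Hspa1b, chr17:34959239-34959488, minus strand: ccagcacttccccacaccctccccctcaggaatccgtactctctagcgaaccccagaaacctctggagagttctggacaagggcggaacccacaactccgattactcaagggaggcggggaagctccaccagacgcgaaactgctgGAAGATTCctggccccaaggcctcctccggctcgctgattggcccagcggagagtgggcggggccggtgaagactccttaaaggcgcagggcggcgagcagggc
Hsph1, chr5:149636337-149636436, minus strand: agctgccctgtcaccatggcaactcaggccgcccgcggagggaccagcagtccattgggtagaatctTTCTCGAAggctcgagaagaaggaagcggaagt
Hspe1, chr1:55087998-55088147, plus strand: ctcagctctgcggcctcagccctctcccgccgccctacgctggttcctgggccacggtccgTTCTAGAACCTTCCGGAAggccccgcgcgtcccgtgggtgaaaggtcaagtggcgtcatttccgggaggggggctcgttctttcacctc
Dnaja4, chr9:54699409-54699558, plus strand: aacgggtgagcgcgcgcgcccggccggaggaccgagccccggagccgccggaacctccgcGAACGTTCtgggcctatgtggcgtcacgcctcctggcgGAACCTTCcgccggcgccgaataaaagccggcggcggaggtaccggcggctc
Hspb1, chr5:135887769-135887918, plus strand: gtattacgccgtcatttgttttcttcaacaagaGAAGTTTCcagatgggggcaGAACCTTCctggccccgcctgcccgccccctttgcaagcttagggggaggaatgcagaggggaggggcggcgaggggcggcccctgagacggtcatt
Hspa5, chr2:34771940-34772089, plus strand: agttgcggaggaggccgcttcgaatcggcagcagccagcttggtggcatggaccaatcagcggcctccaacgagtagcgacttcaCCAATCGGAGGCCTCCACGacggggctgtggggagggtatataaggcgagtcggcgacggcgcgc
The element of Hspa1a and that of Hspa1b began 104 bases before the start, and the sequences of these copies were identical at 247 of 250 positions. The window of Dnaja4 belongs to one of its annotated starts. Hspe1 had 3 overlapping elements, of which the first began 89 bases before the start, so that the units form an unbroken array. In Hsph1 an array of 3 units lay 36 bases after the start, within this site on the minus strand of chr5:149636287-149636306.
Hsph1 site: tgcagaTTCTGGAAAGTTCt

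The libraries differed in depth and in background. The 4 old libraries held 20.1 to 24.9 M reads in genes and the 4 young libraries 1.91 to 6.56 M, with the fewest in young 2. For a gene 1 kb long, 3 reads were worth 0.121 to 0.149 RPKM in old libraries and 0.458 to 1.57 RPKM in young libraries. The 8 listed genes of sperm, which muscle stem cells do not use, summed to 0.290 to 0.498 RPKM in old libraries and 2.92 to 17.9 RPKM in young libraries, with the highest sum in young 2. All 10 listed markers of muscle stem cells passed the filter, and they summed to 3418 ± 352 RPKM in old and 3171 ± 471 RPKM in young libraries (SD, n = 4 each). Sdc4 made up 1715 RPKM of the mean sum in old and 1907 RPKM in young libraries. Of the 10, Myod1 and Vcam1 were called higher in old, and Pax7 (-0.68), Cdh15 (-0.86), Calcr (-1.53) and Cd34 (-0.55) lower, with a median of -0.35 over the 10. With the deposited scaling Cd34 was at 0.13, and of these 4 genes only Calcr was called lower. All values below are on library totals, that is per M reads in genes, because the deposited scaling moved the median of all genes to a log2 fold change of 0.64, against -0.01 on library totals. A difference is therefore one in the share of reads, and less RNA per cell cannot be told apart from fewer cells of a type in these bulk samples.

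Of the 4 inducible genes, 3 made up a smaller share of reads in old cells, whereas the large constitutive chaperones Hspa8, Hsp90ab1 and Hspa5 were not called. With the deposited scaling these constitutive chaperones were called higher, where 68.1% of all genes were. Of the 52 tested genes, 5 were higher in old (9.62%) and 9 lower (17.3%), where 12.3% of all 5703 genes tested were higher and 12.5% lower (limma, Benjamini-Hochberg adjusted p under 0.05, 24.8% in both directions together). The other 38 were not called. The median log2 fold change of the 52 genes was -0.08, against -0.01 over all genes tested. The 9 lower genes were Hspa1b, Hspa1a, Dnajb1, Dnaja4, Hspe1, Dnajb4, Bag3, Dnajc10 and Dnajc4, but on the deposited scale only Hspa1b, Hspa1a, Dnajb1 and Dnaja4 were called lower and Dnajb4, Bag3, Dnajc10 and Dnajc4 had positive values. The 5 higher genes were Bag5, Hspa9, Dnajc5, Dnaja2 and Dnaja3, and all of them were also called on the deposited scale, where 69.2% of all genes were called (68.1% higher and 1.12% lower) and 29 of the 52 were higher. Values of old and young libraries did not overlap for 7 genes that were higher and 7 that were lower in old, where 13.8% and 13.3% of all tested genes did so. Without young 2, 7 of the 52 genes were higher and 14 lower (795 and 802 of all 5703 genes). Without both shallow libraries, young 1 and young 2, 3 were higher and 5 lower (453 and 538 of all genes).

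**Figure D1:**
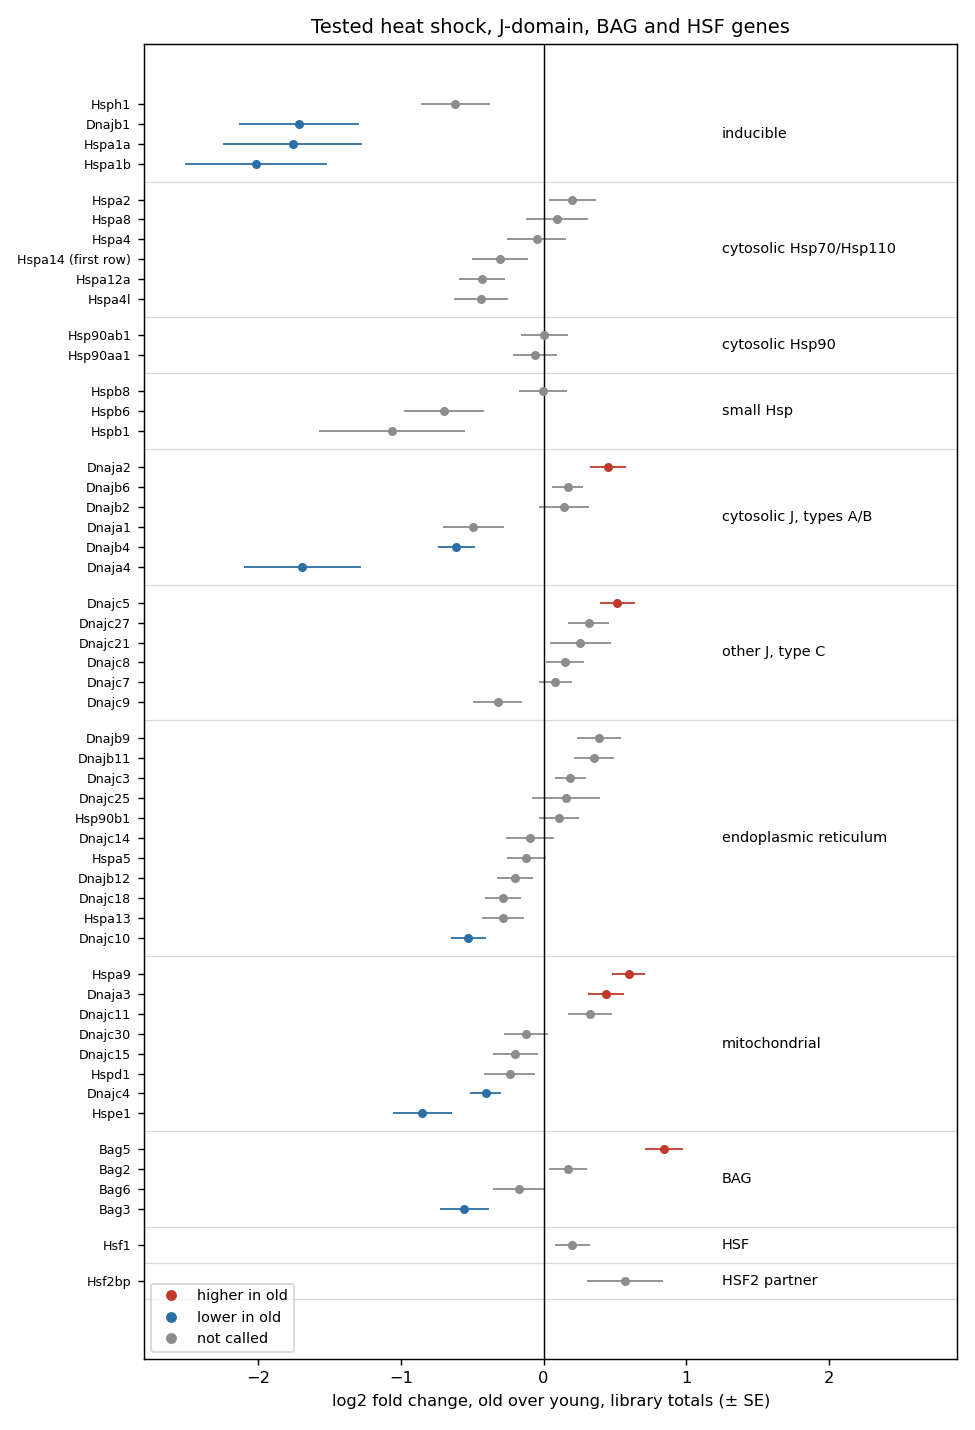
Log2 fold change of old over young on library totals for the 52 tested genes, 1 row per gene, grouped by class, with bars for the standard error. Of the inducible genes Hspa1b, Hspa1a and Dnajb1 lie between -2.01 and -1.71 and were called lower; on the deposited scale the blue points of Dnajb4, Bag3, Dnajc10 and Dnajc4 change sign to between 0.057 and 0.23.

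The inducible class showed the largest differences among these genes. Hspa1a, the stress-inducible cytosolic Hsp70 (chromosome 17, 34969190 to 34972156, minus strand), had 310, 43.5, 265 and 106 RPKM in old 1 to 4, against 513, 472, 441 and 479 RPKM in young 1 to 4. All young libraries were above all old ones, and old 2 and old 4 were far below old 1 and old 3. The mean was 181 ± 127 RPKM in old and 477 ± 29.6 RPKM in young cells (SD, n = 4 each), and the log2 fold change was -1.76 ± 0.48 (SE; adjusted p = 0.0221 by limma). Hspa1b, its near-identical neighbour (chromosome 17, 34956436 to 34959238, minus strand), had 204, 29.3, 199 and 66.7 RPKM in old 1 to 4 and 393, 359, 357 and 439 RPKM in young 1 to 4. Old 2 and old 4 were again the lowest, with no overlap between groups and a log2 fold change of -2.01 ± 0.50 (adjusted p = 0.0139 by limma). Reads of these copies may have been split between them in the authors' counting. Their summed reads gave -1.86 ± 0.49 (adjusted p = 0.0178 by limma). Hspa1a also overlaps the gene model Gm20481 on the other strand.

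Dnajb1, the J-domain protein that works with the inducible Hsp70, had 584, 198, 873 and 299 RPKM in old 1 to 4, against 1971, 767, 1509 and 1546 RPKM in young 1 to 4. Young 2 fell within the range of the old libraries, and old 2 was lowest. The log2 fold change was -1.71 ± 0.42 (limma, adjusted p = 0.0135). Hsph1, an Hsp110 nucleotide exchange factor, had 314, 149, 301 and 176 RPKM in old 1 to 4 and 450, 281, 322 and 339 RPKM in young 1 to 4. Its groups overlapped through young 2, and its log2 fold change of -0.62 ± 0.24 did not pass (limma, adjusted p = 0.0856), although it passed with limma-voom (adjusted p = 0.0495) and was 0.076 on the deposited scale. The 4 genes took 0.416% ± 0.215 of the reads in old libraries and 0.967% ± 0.218 in young libraries (SD, n = 4 each). The calls of Hspa1a and Hspa1b did not hold without both shallow young libraries (limma, adjusted p = 0.117 for Hspa1a and 0.0761 for Hspa1b), with log2 fold changes of -1.71 and -2.05. Hspa1a also missed the threshold without young 1 (adjusted p = 0.0635 by limma) or old 4 (adjusted p = 0.068 by limma), or with no filter on low values (adjusted p = 0.0553 by limma), and Dnajb1 without young 1 (adjusted p = 0.0503 by limma).

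**Figure D2:**
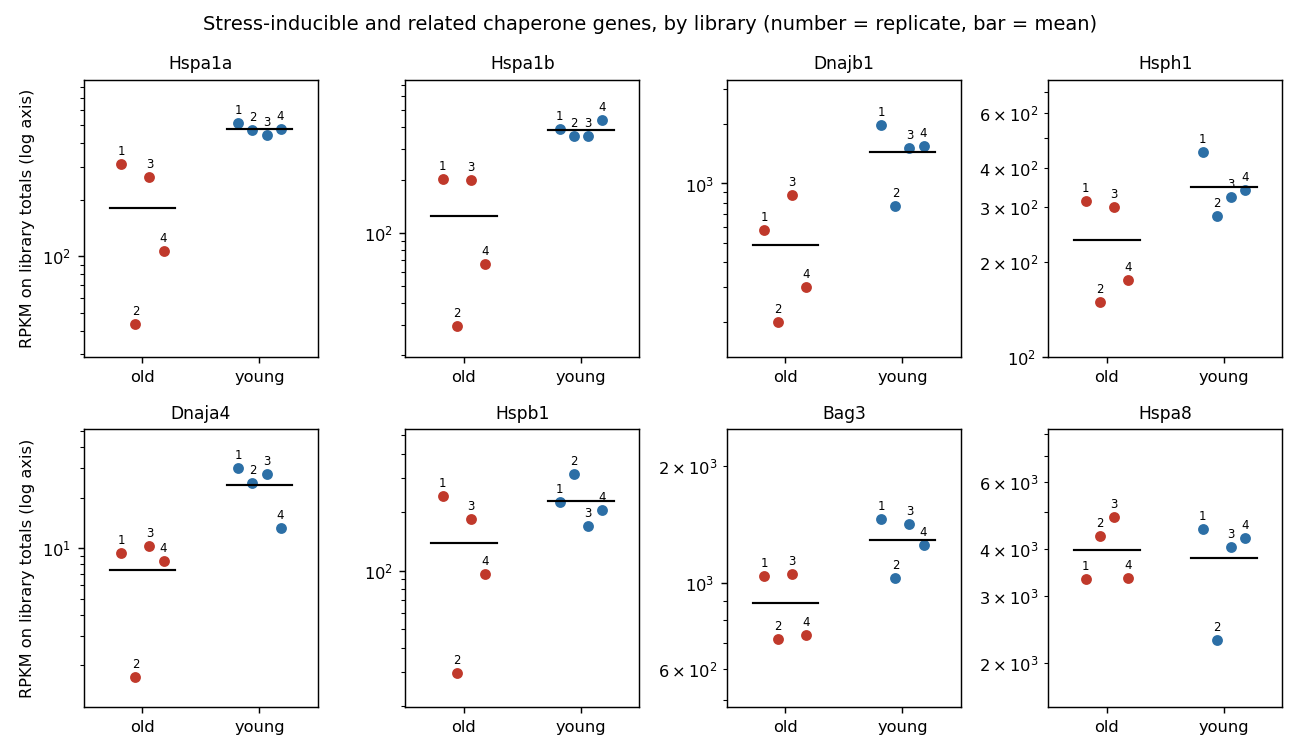
RPKM on library totals (log axis) of 8 genes in each library, old left and young right, with replicate numbers over the points and a bar at the mean. For Hspa1a, Hspa1b and Dnaja4 no old point reaches the young points, old 2 is the lowest point for Hspa1a (43.5 RPKM), Hspb1 (29.6 RPKM) and Dnaja4 (1.69 RPKM), and Hspa8 overlaps between groups.

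The old animals differed from each other more in Hspa1a, Hspa1b and Hspb1 than in nearly all other genes. The highest old library was 7.13 times the lowest for Hspa1a and 6.95 times for Hspa1b, while among young libraries these ratios were 1.16 and 1.23. For Hspb1, a small heat shock protein, the ratio was 8.18 among old and 1.85 among young libraries. The standard deviation of log2 values among old animals was 1.33 for Hspa1b, 1.33 for Hspb1 and 1.30 for Hspa1a. It was larger than in at least 99.9% of all tested genes for each of them, with a median of 0.19 over all genes. It was 0.97 for Dnaja4 and 0.96 for Dnajb1, each larger than in 99.5% of genes. Among young animals the standard deviation was 0.09 for Hspa1a and 0.14 for Hspa1b, against a median of 0.21 over all genes. The difference in spread between groups was described and not tested. The limma fit used a common variance of both groups for each gene. The SE and adjusted p of Hspa1a and Hspa1b therefore rest on an assumption of equal spread that these values did not meet.

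**Figure D3:**
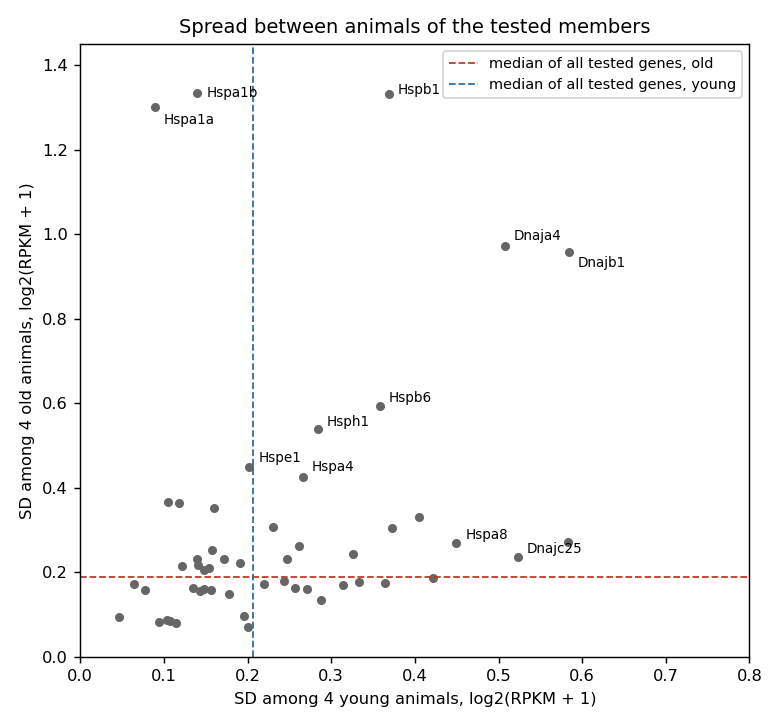
Standard deviation of log2(RPKM + 1) among the 4 old animals (vertical axis) and among the 4 young animals (horizontal axis), 1 point for each of the 52 tested genes, with dashed lines at the medians of all tested genes (0.19 for old, 0.21 for young). Hspa1b, Hspb1 and Hspa1a lie near the top at 1.30 to 1.33 on the old axis, and Hspa1a lies at 0.09 on the young axis.

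The sum of the dissociation response genes, like the inducible genes, was lower in old libraries. The 18 listed genes, among them Fos, Jun and Atf3, summed to 4441, 2500, 4295 and 3008 RPKM in old 1 to 4 and to 6460, 5204, 6932 and 5979 RPKM in young 1 to 4. All old sums were below all young sums (exact two-sided permutation test over 70 assignments, p = 0.0286, the smallest that 4 against 4 allows), and old 2 and old 4 were again the lowest. Among young libraries the sum was highest in young 3 and lowest in young 2. Hspa1a and Hspa1b were lowest in young 3, and Dnajb1 and Hsph1 in young 2. On the deposited scale the old sums were 0.905 times the young ones (exact permutation test, p = 0.543). Of the 17 that were tested, 9 were lower in old and 8 were not called (limma), where 12.5% of all genes tested were lower. With the deposited scaling none of these 9 was called, where 1.12% of all genes were lower. The median log2 fold change of the 17 was -0.77. Their part in the differences of the inducible genes was not tested. Summed markers of muscle fibre were also lowest in old 2, at 62.3 RPKM against 210 to 420 RPKM in the other old libraries, and 169 to 394 RPKM in the young libraries. In the muscle fibre, endothelial, pericyte, leukocyte, fibroblast, Schwann cell and erythroid lists old 2 and old 4 were also the lowest old libraries. This order was not seen in the tendon cell, muscle stem cell and sperm lists. Endothelial markers summed to 82.4, 45.1, 119 and 55.7 RPKM in old 1 to 4 and 116 to 142 RPKM in young libraries, a ratio of 0.602 (exact permutation test, p = 0.0571), or 0.955 on the deposited scale. Pericyte markers summed to 258, 117, 199 and 162 RPKM in old 1 to 4 and 224 to 270 RPKM in young libraries. Leukocyte markers summed to 47.8, 20.1, 41.2 and 19.6 RPKM in old 1 to 4 and 25.2 to 65.7 RPKM in young libraries. Fibroblast markers summed to 2471, 1392, 2439 and 2072 RPKM in old 1 to 4 and 1784 to 2327 RPKM in young libraries. Of these sums Gsn made up a mean of 1113 RPKM in old and 1266 RPKM in young libraries, and Dcn 857 and 455 RPKM. Of the 7 tested fibroblast markers limma called Dcn higher (0.86) and Col1a1 (-1.71) and Col3a1 (-1.75) lower. The median log2 fold change of the 7 was -0.52. Erythroid markers summed to 33.3, 19.7, 94.4 and 24.0 RPKM in old 1 to 4 and 27.5 to 61.8 RPKM in young libraries. Schwann cell markers summed to 178, 132, 182 and 113 RPKM in old 1 to 4. Their mean was 151 ± 34.2 RPKM in old and 217 ± 23.3 RPKM in young libraries (SD, n = 4 each). Tendon cell markers summed to 1067 ± 494 RPKM in old and 288 ± 53.5 RPKM in young libraries (SD, n = 4 each). Each of these 2 lists reached p = 0.0286 in the exact permutation test, although the Schwann cell sum was 1.10 times higher in old on the deposited scale. Their part in the results was not tested.

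**Figure D4:**
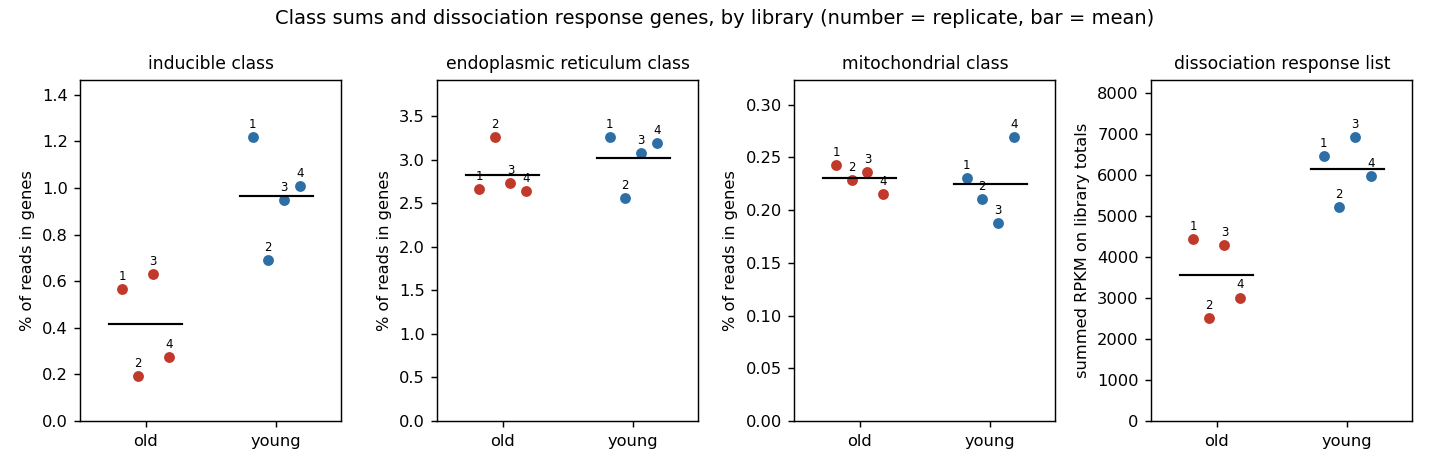
Percent of reads in genes taken by the inducible, endoplasmic reticulum and mitochondrial classes, and the summed RPKM of the dissociation response list, for each library with old left and young right (bar, mean). Old 2 and old 4 are the lowest points in the inducible class and in the dissociation list, and the groups overlap in the endoplasmic reticulum and mitochondrial classes.

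The constitutive cytosolic chaperones were not called in either direction on library totals. Hspa8, the constitutive Hsc70, was the most abundant of them per length, with 3335, 4314, 4848 and 3351 RPKM in old 1 to 4 and 4518, 2306, 4034 and 4276 RPKM in young 1 to 4. Young 2 stood below all other libraries, and the log2 fold change was 0.09 ± 0.22 (limma, adjusted p = 0.777). None of the 6 tested genes of the cytosolic Hsp70 and Hsp110 class was called by limma-trend, with log2 fold changes from -0.44 to 0.20 (2 lower at an unadjusted p under 0.05, and 1, Hspa12a, lower by limma-voom). At an unadjusted p under 0.05, here and below, at least 12.3% of all genes tested were higher and at least 12.5% lower. These shares are those of the called genes, and the full shares were not computed. Hspa4l, Hspa12a and the first of the rows named Hspa14 were at the low end, with -0.44, -0.43 and -0.31. Without young 2, Hspa12a and this Hspa14 row were called lower (limma, adjusted p = 0.0366 and 0.0274). The Hspa14 row was also called lower without both shallow young libraries (limma, adjusted p = 0.0386). Hsp90ab1, the constitutive Hsp90, had 1787, 1987, 2267 and 1759 RPKM in old 1 to 4, against 2258, 1442, 1862 and 2308 RPKM in young 1 to 4. The groups overlapped and the log2 fold change was 0.00 ± 0.17. Hsp90aa1, the stress-responsive Hsp90, was at -0.06 ± 0.15. With the deposited scaling Hspa2, Hspa4, Hspa8, Hsp90aa1 and Hsp90ab1 were called higher, where 68.1% of all genes were.

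Among cytosolic J-domain proteins of types A and B, 1 of 6 tested genes was higher and 2 were lower. Of all genes tested, 12.3% were higher and 12.5% lower. Dnaja4, a type A partner of Hsp70, had 9.37, 1.69, 10.3 and 8.31 RPKM in old 1 to 4, against 30.0, 24.3, 27.5 and 13.2 RPKM in young 1 to 4. No old library reached the lowest young one, and the log2 fold change was -1.69 ± 0.41 (limma, adjusted p = 0.0131), the next largest fall after those of Hspa1b, Hspa1a and Dnajb1. Dnaja4 overlaps Wdr61 on the other strand, and the library kit does not mark strand, so reads of the pair cannot be told apart there. Its call was lost without both shallow young libraries, at -1.45 (limma, adjusted p = 0.108). Dnajb4, a type B relative of Dnajb1, had 22.4, 22.6, 23.4 and 16.7 RPKM in old 1 to 4 and 35.7, 29.1, 33.8 and 33.0 RPKM in young 1 to 4. Its log2 fold change was -0.61 ± 0.13 (adjusted p = 0.00742 by limma), but 0.057 with the deposited scaling. Dnaja2, a type A partner of Hsc70, went the other way, with 167, 200, 161 and 157 RPKM in old 1 to 4 and 114, 123, 118 and 146 RPKM in young 1 to 4. The log2 fold change was 0.45 ± 0.13 (limma, adjusted p = 0.023), and it missed the threshold without young 1, young 3 or old 2, and without both shallow young libraries (adjusted p = 0.118 by limma). Dnaja1, the most abundant of the class per length, had 167, 160, 244 and 144 RPKM in old 1 to 4 and 335, 169, 252 and 262 RPKM in young 1 to 4. The groups overlapped, and its -0.49 ± 0.21 did not pass (limma, adjusted p = 0.114). It passed without young 2 (-0.67, adjusted p = 0.0222 by limma) or without old 3 (-0.65, adjusted p = 0.039 by limma).

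Of the type C J-domain proteins outside the organelles, 1 of 6 tested genes was called, where 24.8% of all genes tested were. Dnajc5, the cysteine string protein of secretory vesicles, had 19.2, 19.9, 15.7 and 20.2 RPKM in old 1 to 4, against 11.2, 14.2, 13.1 and 12.6 RPKM in young 1 to 4. All old libraries were above all young ones, and the log2 fold change was 0.52 ± 0.12 (limma, adjusted p = 0.0116). Dnajc8, a J-domain protein linked to splicing and the most abundant of these per length, had 52.1, 69.0, 66.0 and 73.0 RPKM in old 1 to 4 and 58.8, 49.7, 61.5 and 63.5 RPKM in young 1 to 4. Its groups overlapped, with a log2 fold change of 0.15 ± 0.13.

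Small heat shock proteins hold unfolding proteins without using ATP. None of the 3 tested ones was called by limma-trend or limma-voom (1 lower at an unadjusted p under 0.05). Hspb1 had 242, 29.6, 185 and 95.7 RPKM in old 1 to 4 and 226, 315, 170 and 206 RPKM in young 1 to 4. Old 1 and old 3 lay within the young range and old 2 and old 4 below it, so that the log2 fold change of -1.06 ± 0.51 did not pass (limma, adjusted p = 0.152) and was -0.46 without old 2. Hspb6 had 2.36 to 6.63 RPKM in old and 4.84 to 9.33 RPKM in young libraries, with -0.70 ± 0.28 (limma, adjusted p = 0.0913). Hspb8, a partner of Bag3 in the removal of damaged filamin in muscle, was at 0.00 ± 0.17.

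In the endoplasmic reticulum, 1 of 11 tested genes was lower and 0 were higher (limma-trend). At an unadjusted p under 0.05 by limma, 2 were higher and 2 lower, where at least 12.3% and 12.5% of all genes tested were. Hspa5, known as BiP and the main Hsp70 of this compartment, had 5510, 6815, 5748 and 5457 RPKM in old 1 to 4, against 6995, 5314, 6574 and 6741 RPKM in young 1 to 4. The groups overlapped, with -0.12 ± 0.14 (limma, adjusted p = 0.542), or 0.57 with the deposited scaling. It had the highest value per length of the whole family in every library. Dnajc10, known as ERdj5, a J-domain protein that reduces disulfides of clients bound for degradation, had 12.3, 13.5, 13.8 and 11.9 RPKM in old 1 to 4 and 15.8, 18.3, 22.1 and 20.1 RPKM in young 1 to 4. No old library reached the young ones, and the log2 fold change was -0.53 ± 0.12 (limma, adjusted p = 0.0114), or 0.13 with the deposited scaling. Dnajb9 and Dnajb11, J-domain proteins of BiP, were at 0.39 ± 0.16 and 0.35 ± 0.14 and did not pass (limma, adjusted p = 0.0924 and 0.0895). Without young 2 both passed, with an adjusted p of 0.0227 for Dnajb9 and 0.0407 for Dnajb11 (limma). The class took 2.82% ± 0.292 of reads in old and 3.02% ± 0.319 in young libraries (SD, n = 4 each).

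Of 8 mitochondrial genes tested, 2 were higher and 2 lower (25% each), where 12.3% of all genes tested were higher and 12.5% lower. With the deposited scaling 4 of the 8 were higher and 0 lower, where 68.1% and 1.12% of all genes were. Hspa9, the mitochondrial Hsp70 known as mortalin, which pulls proteins through the inner membrane and folds them, had 238, 272, 210 and 253 RPKM in old 1 to 4 and 155, 164, 151 and 170 RPKM in young 1 to 4. The lowest old library was above the highest young one, and the log2 fold change was 0.60 ± 0.12 (limma, adjusted p = 0.00514). Its J-domain partner Dnaja3, known as Tid1, had 12.1, 11.8, 10.8 and 14.4 RPKM in old 1 to 4, against 9.58, 8.15, 9.71 and 7.73 RPKM in young 1 to 4. The log2 fold change was 0.44 ± 0.13 (limma, adjusted p = 0.0274), which did not pass without any 1 of 4 libraries (young 4, old 1, old 2 or old 4). It also did not pass without both shallow young libraries (adjusted p = 0.0874 by limma), with limma-voom (adjusted p = 0.0687) or with the replicate block (adjusted p = 0.0642 by limma). Dnaja3 shares its locus with Coro7 on the other strand and Vasn on the same strand, and reads of overlapping genes cannot be told apart by strand.

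Hspe1 and Hspd1 encode the lid and the barrel of the mitochondrial chaperonin, and they are transcribed in opposite directions from a shared promoter. Hspe1 had 81.4, 46.0, 91.5 and 57.2 RPKM in old 1 to 4, against 125, 115, 103 and 144 RPKM in young 1 to 4. All old libraries were below all young ones, with old 2 and old 4 lowest, and the log2 fold change was -0.85 ± 0.20 (limma, adjusted p = 0.0125), or -0.16 and not called with the deposited scaling. Without both shallow young libraries it was -0.86 and not called (limma, adjusted p = 0.0641). Hspd1 had 460, 374, 476 and 334 RPKM in old 1 to 4 and 515, 436, 373 and 632 RPKM in young 1 to 4. Its groups overlapped, and -0.24 ± 0.18 did not pass (limma, adjusted p = 0.354). The annotations of these genes overlap by 112 bases on opposite strands. Dnajc4, a J-domain protein found in mitochondria, had 9.60, 8.31, 9.36 and 9.22 RPKM in old 1 to 4 and 11.4, 12.2, 13.5 and 12.6 RPKM in young 1 to 4, with no overlap. Its log2 fold change was -0.41 ± 0.11 (adjusted p = 0.0189 by limma), but 0.23 with the deposited scaling. The call was lost without young 3 (adjusted p = 0.0572 by limma), without old 2 (adjusted p = 0.057 by limma) and in reads thinned to equal totals (adjusted p = 0.108 by limma). The class as a whole took 0.231% ± 0.0115 of reads in old and 0.225% ± 0.0346 in young libraries (SD, n = 4 each).

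**Figure D5:**
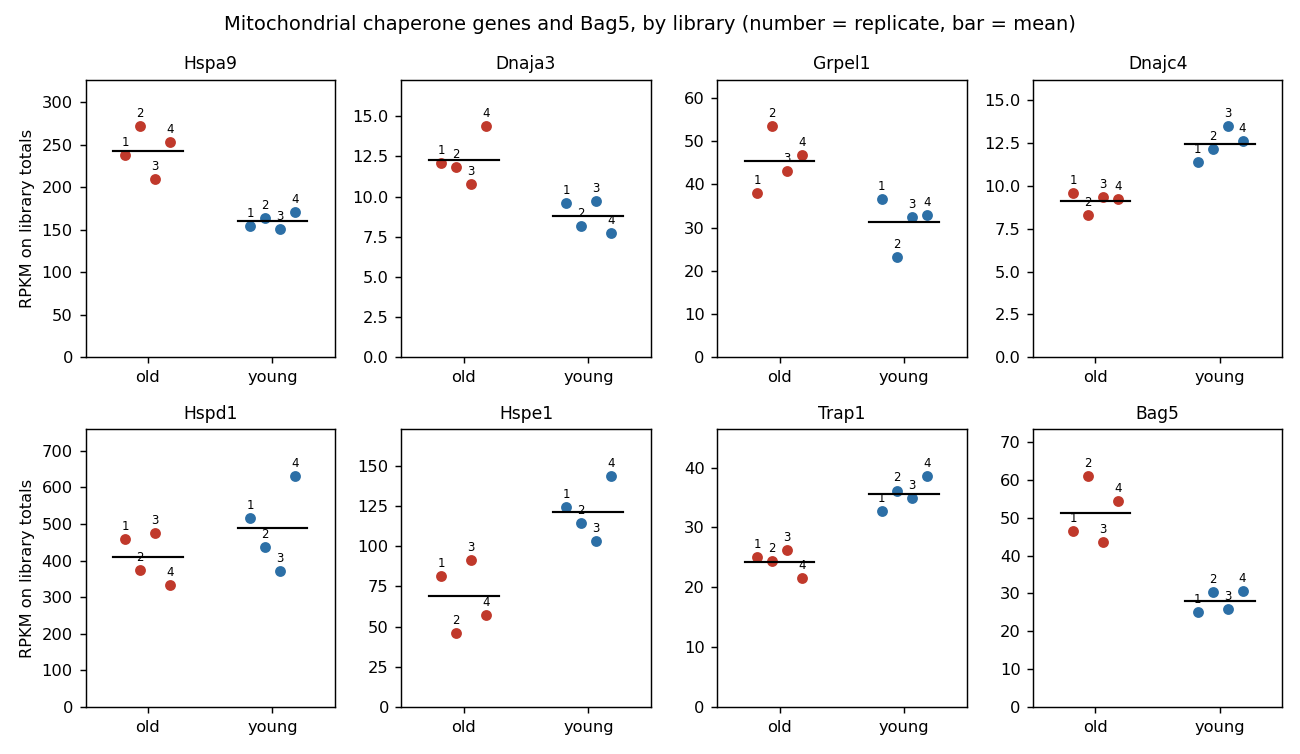
RPKM on library totals of 6 mitochondrial chaperones and cochaperones and of Trap1 and Bag5 by library, old left and young right, with replicate numbers and a bar at the mean. Old points lie above young points for Hspa9, Dnaja3, Grpel1 and Bag5 and below them for Dnajc4, Hspe1 and Trap1, whereas those of Hspd1 overlap; on the deposited scale Dnajc4 and Trap1 have positive values.

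In the BAG family of nucleotide exchange factors, Bag5 was higher and Bag3 lower among 4 tested genes. Of all genes tested, 12.3% were higher and 12.5% lower. Bag5, which binds Hsp70 through several BAG domains (chromosome 12, 111709488 to 111713257, minus strand), had 46.4, 61.1, 43.5 and 54.3 RPKM in old 1 to 4, against 25.2, 30.2, 25.9 and 30.5 RPKM in young 1 to 4. The lowest old library was above the highest young one, and the log2 fold change of 0.85 ± 0.13 was the largest rise in the family (limma, adjusted p = 0.00214). Bag3, which guides damaged proteins of muscle to autophagy together with Hspb8, had 1041, 718, 1054 and 732 RPKM in old 1 to 4 and 1463, 1030, 1422 and 1254 RPKM in young 1 to 4. Young 2 lay within the old range, and the log2 fold change was -0.55 ± 0.17 (limma, adjusted p = 0.037), or 0.14 with the deposited scaling. The call of Bag3 did not hold without any 1 of 5 libraries (young 1, young 3, young 4, old 2 or old 4), without both shallow young libraries (adjusted p = 0.0765 by limma), or with no filter (adjusted p = 0.0927 by limma). Bag1, which was below the filter, had 4.36, 4.03, 3.40 and 5.49 RPKM in old 1 to 4 and 4.13, 6.20, 3.84 and 3.52 RPKM in young 1 to 4, with overlap.

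The transcript of Hsf1, the main heat shock factor, was not called. It had 55.6, 46.8, 49.0 and 59.5 RPKM in old 1 to 4, against 45.4, 49.8, 48.1 and 39.5 RPKM in young 1 to 4, with overlap. Its log2 fold change was 0.20 ± 0.12, which limma did not call (adjusted p = 0.253). Hsf2, a second factor, was below the filter, with 2.35, 1.88, 1.84 and 1.51 RPKM in old 1 to 4 and 4.26, 11.8, 2.39 and 4.30 RPKM in young 1 to 4. The highest library was young 2, which also had the highest sum of sperm genes. Hsf2bp, which the name rule also takes and which encodes a meiotic partner of HSF2, had 4.47, 6.22, 6.47 and 7.58 RPKM in old 1 to 4 and 6.24, 1.76, 4.41 and 3.84 RPKM in young 1 to 4. Its 0.57 ± 0.27 was not called (limma, adjusted p = 0.143).

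Partners outside the name rule were read from 2 lists. Of 26 listed cytosolic cochaperones of Hsp70 and Hsp90, 24 were tested, 2 were higher and 0 lower, where 12.3% and 12.5% of all genes tested were. At an unadjusted p under 0.05 by limma 3 were higher and 3 lower, and the median log2 fold change was -0.05. The 2 called genes were Ptges3, an Hsp90 cochaperone, with 0.49 ± 0.14, and the immunophilin Ppid with 0.48 ± 0.14. Neither was called without young 3, without old 2 or without old 4. The number of higher cochaperones was 1 without young 1 or without young 4, and 2 cochaperones were lower without young 2. Of 18 listed partners in the organelles, 15 were tested, 3 were higher and 2 lower, with a median of 0.20. Over all genes tested, 12.3% were higher and 12.5% lower. Grpel1, the nucleotide exchange factor of Hspa9, had 38.0, 53.5, 43.0 and 46.9 RPKM in old 1 to 4 and 36.6, 23.3, 32.4 and 32.8 RPKM in young 1 to 4, and rose by 0.53 ± 0.16 (limma, adjusted p = 0.0295). The disulfide isomerase Pdia6 and the lectin chaperone calnexin (Canx) were higher by 0.48 ± 0.14 and 0.38 ± 0.13 on the log2 scale. Trap1, the mitochondrial Hsp90, had 25.1, 24.4, 26.2 and 21.5 RPKM in old 1 to 4 and 32.7, 36.2, 34.9 and 38.7 RPKM in young 1 to 4, at -0.54 ± 0.11 (limma, adjusted p = 0.00637), or 0.14 with the deposited scaling. Sil1, an exchange factor of BiP, was at -0.41 ± 0.13, or 0.24 with the deposited scaling. All 3 calls of higher organelle partners were lost without young 3, without old 2 or without old 4.

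The 33 genes below the filter had mean deposited values from 0.104 to 4.999 RPKM, and the tested gene with the lowest mean, Hspa4l, had 5.01 RPKM. For 32 of the 33, the mean on library totals was lower in old than in young cells, in the same direction as the sum of the sperm genes. The share of all genes below the filter with this direction was not computed. Without a filter, 8166 of all 24630 genes were called lower and 873 higher. No test of the 33 genes is given here. They include muscle-enriched Hspb2, Hspb3 and Hspb7, germ cell genes such as Hspb9 and Dnajb8, and Hspb11, which encodes an intraflagellar transport protein.

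Heat shock elements were counted in RefSeq promoter windows from 250 bases before to 50 bases after each start, on both strands, in any window of a gene. Of the 84 symbols (Hspa14 has 2 rows in the table), 67 had a window. The 2-unit element (GAANNTTC or TTCNNGAA) was found in 18 of the 67 (26.9%), against 17.0% of all 27025 genes with a window. It was in 7 of the 9 genes that were lower in old, in 8 of 29 that were not called, and in 0 of 3 that were higher and had a window. The 7 were Hspa1a, Hspa1b, Dnaja4, Dnajb4, Dnajc10, Hspe1 and Bag3, while Dnajb1 and Dnajc4 had no match. Of the 7, Dnajb4, Dnajc10, Hspe1 and Bag3 were not called lower with the deposited scaling. The share with this element among all genes called lower was not computed. Hspa1a and Hspa1b were counted apart here, although their sequences before the start were identical at 247 of 250 positions. The 3-unit element (GAANNTTCNNGAA), which contains the 2-unit element, was in 0.662% of all genes and in 4 of the 67, which were Hsph1, Hspe1, Hspd1 and Dnajb6. Only Hspe1 of these was called. The endoplasmic reticulum stress element was in 0.137% of all genes and in Hspa5, Hsp90b1 and Dnajc3, none of which was called. More than 1 window was listed for 23.9% of the 67 genes and for 15.4% of all genes, and a match is a description of the letters alone.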

How the data were processed

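Messenger RNA of sorted muscle stem cells was sequenced from 8 animals (4 old, 4 young). Per the labels' protocols, 10 ng of RNA was reverse-transcribed from oligo(dT) with a SMARTer kit, which does not mark strand. The authors deposited 1 table of RPKM values. Per the submitters' processing notes, Trim Galore, STAR, featureCounts, Subread and edgeR were used with mm10 and GRCm38. Which versions and annotation they used is not stated in the sources used here. The deposited RPKM values could be written as whole reads times a step (within 0.03) for 100% of 24630 genes, so reads and library totals were recovered, and zeros that had been replaced by small values were set back. Merged exon lengths and coordinates came from GENCODE M21 on GRCm38. The recovery was tested on simulated data, and returned the drawn reads up to a common divisor for 100% of 23213 genes.

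RPKM on library totals were tested with limma-trend, in limma version 3.58.1 under R version 4.3.3, after taking log2(RPKM + 1). Old was set against young for the 5703 genes with a mean deposited RPKM of at least 5, without covariates. Adjustment was by Benjamini-Hochberg over all of them, with a call at 0.05. Fold changes refer to this scale, which understates those of low genes. In simulated reads of 5703 genes for this comparison, 36%, 84%, 88% and 96% of 50 genes each changed 1.5-fold, 2-fold, 3-fold and 4-fold were recovered, and 5% of the calls were false. Fewer genes were changed there than were called in the data, the spread of a gene was the same in both groups, and no background was added. These shares therefore need not hold for the real libraries. Floors of 3 reads cover counting error only. For summed markers the test was an exact permutation of the libraries, two-sided. Members, classes and lists were chosen with earlier results of these data known. Values are given in every library for the 4 inducible genes, each called member (up to 5 per class and direction), the most abundant member of a class, Hsf1, Hsf2, Bag1 and Bag3; of each partner list up to 3 called genes per direction are named. Other members are given by counts and ranges. Alternatives were the deposited scale, other scale factors, pseudocounts of 0.1 and 0.5, other filters, thinned reads, a replicate block, libraries left out, and limma-voom on the recovered reads, which was chosen after seeing the data. The spike-in RNA that the labels mention was not analysed here.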

Additional observations from a re-analysis of the deposited data

Results flagged for a closer look

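In 6 of 104 groups of 4 animals, 1 library stood apart from the other 3, its gap to the nearest being over Dixon's critical share of the group's range; chance gives about 1 in 20 groups. Among old animals, Dnaja4 in old 2 (1.69 RPKM, next 8.31) had a gap of 0.868 of the range, Dnajb4 in old 4 (16.7 RPKM, next 22.4) one of 0.861, and Dnajb6 in old 2 (50.3 RPKM, next 44.8) one of 0.888. Among young animals, Hspa8 in young 2 (2306 RPKM, next 4034) had a gap of 0.832 of the range, Hspb8 in young 1 (12.9 RPKM, next 11.3) one of 0.853, and Dnajc27 in young 1 (6.85 RPKM, next 5.47) one of 0.896. No inducible gene was among them; there old 2 and old 4 were both low.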

How the results depend on the processing

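On library totals the 5 higher and 9 lower calls were the same genes with trimmed-mean or median-of-ratios factors, pseudocounts of 0.1 and 0.5, a filter of 10 RPKM and no trend. Counts of calls moved elsewhere. With a filter of 1 RPKM, 15 of 66 members and 2280 of 11096 genes in all were lower, and without a filter 16 of 85 and 8166 of 24630. The 16 hold 7 of the 9, since Hspa1a and Bag3 lost their calls. With a filter of 10 RPKM 384 genes in all were lower. Without the 2 shallowest young libraries 3 members were higher and 5 lower, and 453 genes in all were higher and 538 lower. With 1 library left out in turn, 3 to 7 members were higher and 6 to 14 lower (475 to 795 and 476 to 802 genes in all), 0 to 2 and 0 to 2 of the cytosolic cochaperones, and 0 to 4 and 1 to 2 of the organelle partners. limma-voom gave 4 higher and 12 lower members, with 542 higher and 949 lower genes in all. The count tests of edgeR and DESeq2 were not run, because the table holds RPKM.

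With the deposited scaling 29 members were called higher and 4 lower, 3882 and 64 genes in all, 19 cytosolic cochaperones higher, and 13 organelle partners higher and 0 lower. There the direction turned in 22 members, to log2 fold changes of 0.14 (Bag3), 0.42 (Bag6), 0.20 (Dnaja1), 0.40 (Dnajb12), 0.057 (Dnajb4), 0.13 (Dnajc10), 0.48 (Dnajc14), 0.41 (Dnajc15), 0.34 (Dnajc18), 0.49 (Dnajc30), 0.23 (Dnajc4), 0.30 (Dnajc9), 0.63 (Hsp90aa1), 0.15 (Hspa12a), 0.40 (Hspa13), 0.32 (Hspa14), 0.62 (Hspa4), 0.13 (Hspa4l), 0.57 (Hspa5), 0.63 (Hspb8), 0.46 (Hspd1) and 0.076 (Hsph1). The shift of all genes there is 0.64.

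Members near 0 turned sign without being called. Thinned reads gave -0.010 for Dnajc21 and -0.00036 for Hsp90ab1, and limma-voom gave -0.066 for Hsp90ab1. Without the 2 shallowest young libraries Dnajc30 was at 0.086, Hsp90aa1 at 0.053, Hsp90ab1 at -0.096, Hspa4 at 0.15, Hspa8 at -0.087 and Hspb8 at 0.045. With 1 library left out, Hsp90aa1 ranged from -0.20 to 0.0054, Hsp90ab1 from -0.14 to 0.089, Hspa4 from -0.22 to 0.12, Hspa8 from -0.13 to 0.20 and Hspb8 from -0.16 to 0.13.

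Ratios of marker sums, old over young, were on the deposited scale 0.905 for dissociation, 1.75 for muscle stem cells, 1.16 for muscle fibre, 1.65 for fibroblast, 1.22 for leukocyte, 1.15 for pericyte, 1.10 for Schwann cell and 1.52 for erythroid markers. With 1 library left out they ranged from 0.988 to 1.17 for fibroblast, 0.487 to 0.683 for endothelial, 0.630 to 0.815 for pericyte, 3.00 to 4.30 for tendon cell, 0.649 to 0.755 for Schwann cell, 0.591 to 1.16 for erythroid and 0.0436 to 0.102 for sperm genes; 3 against 4 animals allows no p under 0.0286.

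The replicate numbers do not pair the animals: the correlations of deviations between same-numbered animals were -0.16, -0.06, 0.38 and -0.23. With the replicate block 5 members were higher and 10 lower; Dnaja3 was lost, and Dnajb9 and Hsph1 were gained. Depth and age cannot be told apart, since every young library is shallower than every old one. The cause of the changes above was not tested.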
